A study of Mus musculus with 35 samples.

Results

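The 500 largest clustered domains of histone H3 lysine 27 acetylation (H3K27ac) in mouse embryonic stem cells (ESC) were followed back through reprogramming, in H3K27ac and in binding of the transcription factor KLF4. Peaks of the 2 ESC lists on chromosomes 1 to 19 and X were merged, and the 55019 merged peaks found in both lists are called kept peaks. Kept peaks less than 12500 bp apart were joined into 21562 domains, and the 500 with the most kept base pairs were taken, 2.32% of all. They held 7345 kept peaks and 21.4% of all kept base pairs. The domains were chosen by measured values, the ESC H3K27ac peaks themselves, so ESC coverage is given only as a description and enters no test.

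H3K27ac is a mark of active promoters and enhancers. Long clusters of acetylated elements, often called super-enhancers, lie near genes that define a cell type, and in ESC many lie at genes of the pluripotency network. KLF4 is a zinc finger factor that binds GC-rich sites, is one of the factors used to reprogram fibroblasts, and is part of that network in ESC.

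The libraries came from mouse embryonic fibroblasts (MEF) of a C57BL/6 x 129 mouse that carries an OKSM cassette (Oct4, Klf4, Sox2 and Myc) in Col1a1 and the M2rtTA activator in Rosa26. Untreated MEF were unsorted and had no doxycycline. Reprogramming cells grew in ESC medium with 1000 U/ml LIF, with doxycycline at 1 µg/ml and ascorbic acid at 50 µg/ml, and were taken unsorted at day 3 and sorted for the surface marker SSEA1 at days 6 and 9. V6.5 ESC, an established line, grew on irradiated feeder cells in ESC medium with 1000 U/ml LIF, and the labels give them no doxycycline or ascorbic acid. For 2i, 1 µM MEK inhibitor and 3 µM GSK3 inhibitor were added. There were 3 H3K27ac libraries for each of days 3 and 6 and 2 for each of MEF, day 9 and ESC. KLF4 had 2 libraries in each of 5 conditions: day 3, day 6, day 9, ESC and 2i, with none in MEF. The labels do not say which libraries came from separate cultures or animals, so p-values measure the spread between libraries, which may be technical. Reads from the cassette's coding sequence and from the native Pou5f1, Sox2 and Klf4 exons cannot be told apart in these lists.

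Lists differed in length. H3K27ac lists of MEF covered 82.8 and 83.5 Mb, those of day 3 covered 23.8 to 38.4 Mb, those of day 6 only 9.21 to 19.9 Mb, those of day 9 48.9 and 49.5 Mb, and those of ESC 66.3 and 62.3 Mb. Sequencing depth is unknown. KLF4 lists held 21129 to 34640 peaks. By the batch code in the titles, DG-3458 held all H3K27ac libraries of MEF and ESC, EA-3702 both of day 9, and days 3 and 6 were spread over both. Fibroblast markers served as a check of the lists: 20 of 20 had an H3K27ac peak in both MEF libraries, with a median of 29.2% and 29.3% of the gene covered, against 14 and 13 of 20 and medians of 0.827% and 0.956% in ESC. The feeder cells' part in the ESC lists was not tested.

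A domain of the 500 had a median of 24591.5 kept base pairs, from 17650 to 84247, against a median of 1428 in the other domains. It spanned a median of 53.3 kb and held a median of 13.5 kept peaks, from 3 to 41. Of the kept peaks in the 500, 26.3% lay within 2.5 kb of a protein-coding gene end, against 33.2% in the other domains. A protein-coding gene overlapped 452 of the 500. Chromosome 11 held the most, 53 of its 1372 domains (3.86%), and chromosome X held 3 of 773. At the threshold, the last 5 domains taken had 17713 to 17650 kept base pairs, and the first 5 left out had 17648 to 17455. Zfp42 lay just inside, at rank 499, and Nr4a1 was in the first domain left out.

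Of 20 pluripotency factors, 11 lay at the 500 domains: Tbx3 (rank 3), Esrrb (19), Klf5 (43), Klf2 (66), Prdm14 (70), Tfcp2l1 (118), Nanog (228), Pou5f1 (248), Sox2 (361), Mycn (437) and Zfp42 (499). Of 18 signalling genes of ESC, 6 did: Socs3 (50), Smad7 (54), Etv5 (92), Lefty1 and Lefty2 in 1 domain (196), and Fgf4 (331). Of 10 genes of chromatin and DNA methylation, 6 did: Mybl2 (14), Jarid2 (69), Tet2 (93), Trim28 (134), Tet1 (198) and Phc1 (478). Of 14 housekeeping genes, 4 did (Hsp90ab1, Rpl3, Hspa8 and Eef1a1), and of 20 fibroblast markers 1, Fn1. None of 6 trophoblast and none of 6 endoderm markers did, although 5 of 6 in each list lay at some domain. By the same rule, a gene body within 2.5 kb of a domain, 1123 of all 21631 protein-coding genes (5.19%) lay at the 500 and 65.2% at some domain.

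The 10 largest, all in mm10 coordinates, began with chr17:36942504-37083428, which holds Zfp57, an imprinting factor, and Gabbr1. Next came chr11:8543983-8701229 at Tns3 and chr5:119578416-119724294 at Tbx3, a T-box factor of ESC self-renewal. The others lay at Coil and Trim25, Cd9, Tgif1, Usp7, Irf2bpl, the Ifitm genes, and Lmna with Mex3a.

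The domain at rank 44, chr7:3163833-3238147, holds the miR-290 to miR-295 cluster, which is abundant in ESC. Of the 8 mature 3p arms that the sequence table holds for it, the 5 whose seed begins with AAGUGC are printed, because the domain was among the 5 with the largest rise in KLF4 peaks from day 3 to ESC. Mature sequences are from RefSeq, GRCm38.p6, and capitals mark the seed, bases 2 to 8. Of the 17 mature sequences of the cluster in that table, 3 share the seed AAGUGCU (miR-291a-3p, miR-294-3p and miR-295-3p), while miR-290a-3p has AAGUGCC and miR-291b-3p AAGUGCA.
mmu-miR-290a-3p, chr7:3218674-3218697, strand +: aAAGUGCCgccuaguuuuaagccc
mmu-miR-291a-3p, chr7:3218968-3218989, strand +: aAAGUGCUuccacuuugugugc
mmu-miR-291b-3p, chr7:3219529-3219550, strand +: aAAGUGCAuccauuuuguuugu
mmu-miR-294-3p, chr7:3220691-3220712, strand +: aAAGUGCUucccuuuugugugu
mmu-miR-295-3p, chr7:3220815-3220837, strand +: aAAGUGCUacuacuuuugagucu
At this domain H3K27ac covered 9.51% and 8.87% of the kept base pairs in the 2 MEF libraries. It covered 18.7%, 17.5% and 12.2% at day 3, 5.05%, 4.83% and 13.5% at day 6, and 41.7% and 41.5% at day 9. Day 9 stood above every earlier library (day 9 minus MEF 32.4 points, SE 3.35, limma adjusted p = 0.000162). KLF4 peaks numbered 2 and 3 at day 3, 3 and 3 at day 6, 6 and 6 at day 9, 9 and 13 in ESC, and 8 and 14 in 2i.

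Promoters of listed genes inside kept peaks of the 500 matched 18 RefSeq entries of GRCm38.p6, each with 250 bases before and 50 after a start. The 4 shown belong to genes of the pluripotency list and differ in when H3K27ac and KLF4 peaks reached them; they were chosen after their values were seen. Capitals mark GGGNGTGG, a core of the KLF4 motif, and ATTTGCAT, the octamer of POU factors, searched on both strands.
Nanog, chr6:122707239-122707538, strand +: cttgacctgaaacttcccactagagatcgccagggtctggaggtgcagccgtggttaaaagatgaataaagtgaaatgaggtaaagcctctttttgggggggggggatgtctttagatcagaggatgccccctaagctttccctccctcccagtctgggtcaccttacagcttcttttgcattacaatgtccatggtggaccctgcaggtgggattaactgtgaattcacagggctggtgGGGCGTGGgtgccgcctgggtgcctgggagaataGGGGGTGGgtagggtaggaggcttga
Tfcp2l1, chr1:118627695-118627994, strand +: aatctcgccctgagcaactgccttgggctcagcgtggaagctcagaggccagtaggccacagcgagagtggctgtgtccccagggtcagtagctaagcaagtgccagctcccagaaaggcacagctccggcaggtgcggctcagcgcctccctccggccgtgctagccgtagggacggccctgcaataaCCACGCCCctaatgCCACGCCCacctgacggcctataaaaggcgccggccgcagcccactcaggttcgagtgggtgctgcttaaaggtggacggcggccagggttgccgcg
Zfp42, chr8:43306960-43307259, strand -: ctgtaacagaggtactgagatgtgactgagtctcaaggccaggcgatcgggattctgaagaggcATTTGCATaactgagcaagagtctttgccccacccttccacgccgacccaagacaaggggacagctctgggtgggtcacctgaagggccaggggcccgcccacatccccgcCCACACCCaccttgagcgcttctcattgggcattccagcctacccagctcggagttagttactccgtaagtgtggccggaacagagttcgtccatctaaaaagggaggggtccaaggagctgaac
Mycn, chr12:12941787-12942086, strand -: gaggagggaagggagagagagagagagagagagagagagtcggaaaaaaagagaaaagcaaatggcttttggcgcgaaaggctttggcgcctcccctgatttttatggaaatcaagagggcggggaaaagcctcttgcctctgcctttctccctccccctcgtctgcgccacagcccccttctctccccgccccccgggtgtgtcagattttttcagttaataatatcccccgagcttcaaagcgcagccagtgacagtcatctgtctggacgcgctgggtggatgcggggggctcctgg
The Nanog promoter (a homeodomain factor of the network) touched KLF4 peaks in no day 3 library, in both at day 6, both at day 9, both in ESC and both in 2i. It touched H3K27ac in no MEF or day 3 library, in 1 of 3 at day 6 and in both at day 9. The Zfp42 promoter (a marker of undifferentiated cells) touched a KLF4 peak in all 10 libraries, and H3K27ac in none before day 9. The Tfcp2l1 promoter (a factor of naive ESC) touched KLF4 in 9 of 10 libraries and H3K27ac in none before day 9. The Mycn promoter, in which neither motif was found, touched KLF4 in 9 of 10 libraries and H3K27ac in all 3 at day 6. GGGNGTGG occurred in 23.0% of the 1180 promoters that touched a kept peak of the 500, in 23.0% of those at other domains and in 17.7% of all 32619. ATTTGCAT occurred in 2.29%, 1.35% and 1.75%. A match is only a match of letters.

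Coverage is the percentage of kept base pairs that a library's own peaks cover. Over the 500 domains together it was 23.5% and 23.6% in MEF. At day 3 it was 20.7% in the EA-3702 library, and 17.5% and 15.0% in those of DG-3458. The day 6 values were 14.5% for EA-3702, then 8.12% and 7.31% for DG-3458, and day 9 had 29.6% and 30.2%. The ESC libraries, which chose the domains, covered 92.7% and 90.5%. Day 6 was the lowest stage in each batch and day 9 the highest before ESC, and no 2 neighbouring stages overlapped. Coverage differed between the 4 stages before ESC (F = 22.4, exact permutation test over 10 libraries, p = 0.00127, adjusted p = 0.00508 over 13 tests). F was 53.9 without the EA-3702 library of day 6, and 14.3 and 13.8 without either day 9 library. The linear slope of coverage over days 3 to 9 did not pass the threshold (1.67 points per day, exact permutation p = 0.225, adjusted p = 0.266). Coverage fell to day 6 and rose to day 9, a course that a linear slope does not describe. Without either day 9 library the slope was 0.91 and 0.84 points per day. MEF and day 9 share no batch, but days 3 and 6 hold both batches, so a fit with batch as a term could be made for single domains and is given with their counts.

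The share of a library's own covered base pairs that lay in the 500 domains followed another order. It was 3.98% and 4.00% in MEF, 7.58% to 8.88% at day 3, 10.2% to 11.2% at day 6, 8.52% and 8.58% at day 9, and 19.7% and 20.5% in ESC. The day 6 lists, the shortest, had the highest share before ESC, and the MEF lists, the longest, the lowest. The share differed between stages (F = 84.4, exact permutation p = 0.000952, adjusted p = 0.00508). F was 45.5 and 45.3 without either MEF library and 158 without replicate 2 of day 3. The share had a slope over days 3 to 9 of 0.12 points per day (exact permutation p = 0.566) that ran from 0.011 to 0.26 when 1 library was left out, lowest without the EA-3702 library of day 3 and highest without day 9 replicate 1.

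In every library before ESC the 500 were covered less than the other domains. The other domains were covered to 32.7% and 32.8% in MEF, 20.8% to 28.8% at day 3, 13.2% to 23.0% at day 6 and 40.5% and 41.4% at day 9. Coverage divides by kept base pairs, the quantity by which the 500 were ranked, so this difference is given as a description, with no p. Within libraries it was −8.10 points on average, and −17.1 points with equal numbers of top peaks from each library. Against the next 500 domains by size, a comparison added after the data were seen, it was −2.87 points, lower in each of the 10 libraries. The difference from all other domains moved by −0.70 points per day from day 3 to day 9 (exact permutation p = 0.0286, adjusted p = 0.0464, or 0.05 over all 16 tests, not below the threshold). That call was lost in 8 of 11 other settings and in 6 of 10 fits without 1 library, both day 9 libraries (−0.61 and −0.57) and both DG-3458 libraries of day 3 (−0.69 and −0.68) among them. Mean coverage was 17.7% in the 500 against 24.3% in the others at day 3, and 29.9% against 41.0% at day 9. A gap in points widens with coverage where the ratio stays the same, and a change in the ratio was not tested.

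Where the deficit lay was measured by splitting kept peaks at 2.5 kb from a protein-coding gene end. Near gene ends the 500 were covered to 37.6% ± 0.26 in MEF (SD, n = 2), 27.5% ± 4.03 at day 3 (n = 3), 18.8% ± 5.54 at day 6 (n = 3) and 43.7% ± 0.56 at day 9 (n = 2). The other domains reached 62.1% ± 0.20, 44.9% ± 6.80, 34.9% ± 8.81 and 66.6% ± 0.99 there, so the 500 were lower by 13.8 to 24.5 points in all 10 libraries (mean −19.5). Away from gene ends the 500 had 16.7% ± 0.02, 12.96% ± 2.28, 5.65% ± 3.15 and 23.2% ± 0.36, and the other domains 15.1% ± 0.06, 11.9% ± 2.47, 6.02% ± 3.23 and 25.5% ± 0.43. That difference was +1.69 and +1.58 points in MEF, +0.69 to +1.52 at day 3, −0.31 to −0.46 at day 6 and −2.30 and −2.40 at day 9. It averaged 0.07 points over the 10 libraries, and fell by 0.57 points per day from day 3 to day 9 (exact permutation p = 0.00179, the smallest 8 libraries can give). This split was added after the data were seen, and its p is not adjusted as a further added test. Batch blocks and leaving out single libraries were not run on the split, and both day 9 libraries are of EA-3702.

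**Figure D1:**
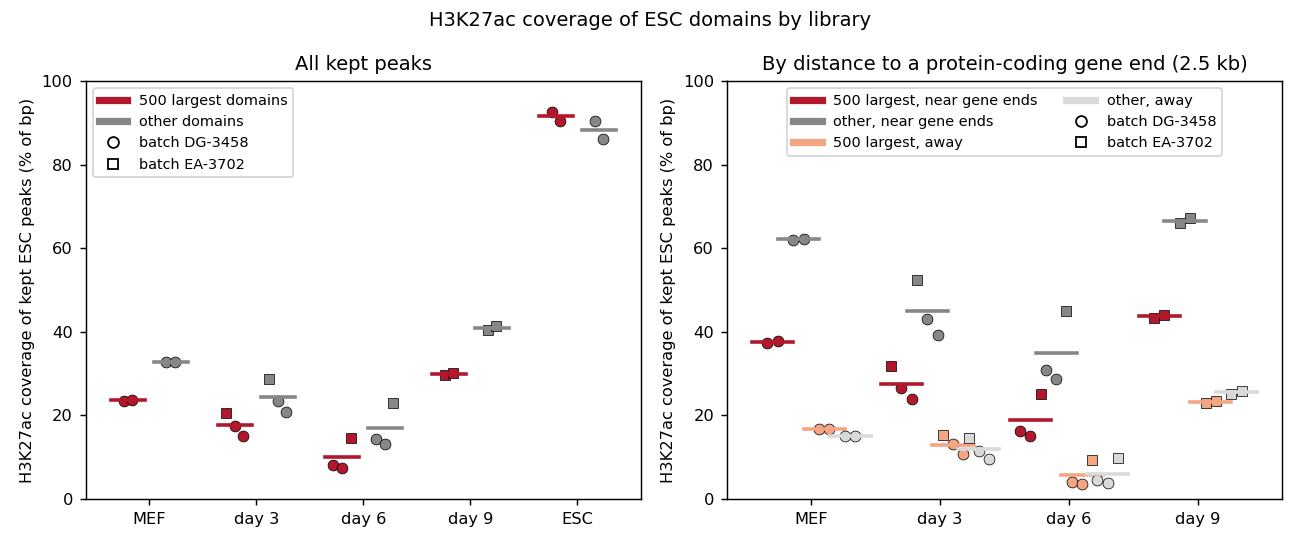
H3K27ac coverage of kept ESC peaks in percent of base pairs, 1 point per library with its batch as the symbol and the stage mean as a bar. Left, the 500 largest domains lie below the other domains in all 10 libraries before ESC; right, the gap is wide near gene ends (37.6% against 62.1% in MEF) and small away from them (16.7% against 15.1%).

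Within the 500, kept peaks near gene ends were covered more than the rest in 10 of 10 libraries, by 11.5 to 21.1 points (mean 16.6, exact sign-flip p = 0.00195, adjusted p = 0.00521 over 16 tests, a test added after the data were seen).

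Single domains varied widely around these totals. In the MEF libraries the tenth percentile of the 500 was 1.92% and 1.87%, the median 18.3% and 18.9%, and the ninetieth percentile 53.0% and 52.3%. At day 6 the median ran from 5.60% to 12.2% and at day 9 it was 27.8% and 28.4%. One domain was uncovered in all 10 libraries before ESC, against 30.5% of all domains, which are smaller.

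**Figure D2:**
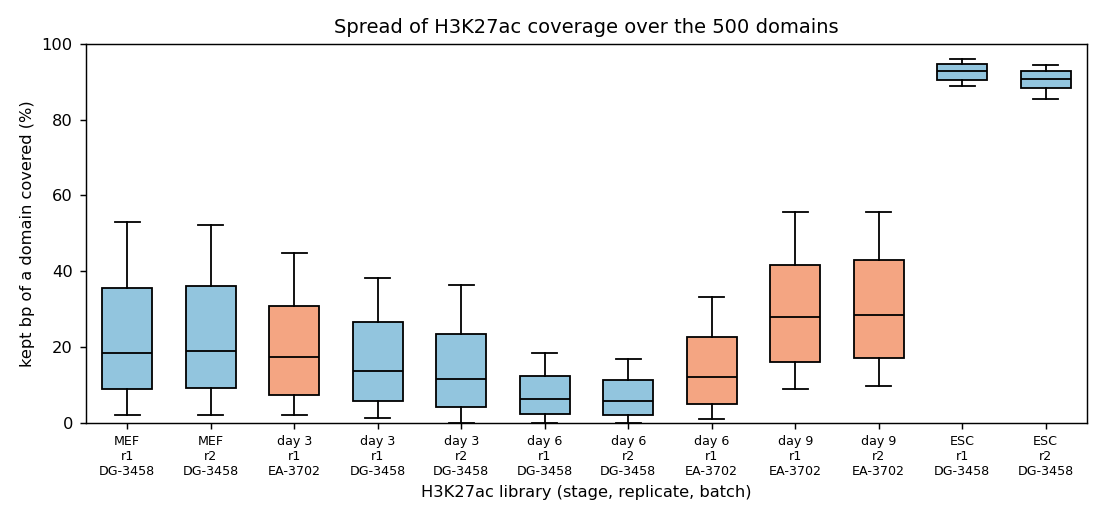
Percent of kept base pairs covered in each of the 500 domains, by H3K27ac library; boxes are quartiles with the median, whiskers the tenth and ninetieth percentiles, and colour marks the batch (blue DG-3458, orange EA-3702). Medians run from 5.60% in a day 6 library to 28.4% at day 9, and in replicate 1 of day 9 the whiskers reach from 8.70% to 55.5%.

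A domain was called filled at a stage when every library covered at least 50% of it, empty when every library covered under 10%, and otherwise partial. Filled domains of the 500 numbered 54 in MEF, 10 at day 3, 0 at day 6 and 69 at day 9, against 32.8%, 17.9%, 9.4% and 39.6% of all 21562 domains. Empty ones numbered 135, 156, 219 and 50, against 49.3%, 49.7%, 56.5% and 37.0%. The most frequent course was partial at all 4 stages, with 156 domains (31.2%), against 5.76% of all domains and 140 of the next 500 by size. Another 108 were empty at day 6, partial at day 9 and not empty in at least 1 of MEF and day 3 (background 5.15%, 85 of the next 500), and 48 of these were empty at day 3 as well. A further 54 were empty until day 6 and not at day 9 (9.71%, 47), and 36 were empty at all 4 stages (32.0%, 38). Filled in MEF and at day 9 were 23 (27.5%, 44), filled in MEF and not at day 9 31 (5.31%, 27), and filled at day 9, not in MEF and not empty at every earlier stage 46 (9.52%, 71). Background domains were much smaller, with a median of 2 kept peaks. Without the EA-3702 library of day 6 the class of 108 held 40.2% of the 500 in place of 21.6%, and the share partial throughout 16.4% in place of 31.2%. The shares of all domains were not computed without that library.

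Domains filled in MEF but not at day 9 included Myh9 (nonmuscle myosin heavy chain, rank 15), Ensa with Mcl1 (31) and Actn4 (37). At Myh9 coverage was 66.2% and 63.5% in MEF, 48.7%, 45.2% and 43.7% at day 3, 19.9%, 10.4% and 7.09% at day 6, and 40.2% and 44.1% at day 9. It fell by 22.7 points from MEF to day 9 (SE 4.79, limma adjusted p = 0.00685), while the value for Actn4 was −12.1 points (adjusted p = 0.106). Filled at day 9 and not in MEF were Lmna (10), Trim71 (49), an RNA-binding regulator of stem cells, and Myo10 (64). Lmna lay on both sides of the 50% limit by little, with 46.1% and 46.4% in MEF and 55.5% and 52.2% at day 9 (difference 7.60 points, SE 5.12, limma adjusted p = 0.328). At Trim71 coverage was 7.30% and 6.38% in MEF, 25.6% to 31.4% at day 3, 13.8% to 31.9% at day 6, and 54.8% and 52.2% at day 9. The histone gene cluster at rank 12 and Klf13 (182) were filled in MEF and at day 9. Sall1 (17), a zinc finger gene, had 11.5% and 11.2% in MEF, at most 0.46% in the day 3 libraries, at most 2.46% at day 6, and 14.7% and 13.3% at day 9.

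The limma fit over 14100 domains, a filter of coverage in at least 2 libraries that all but 4 of the 500 passed, gave 323 of the 500 higher at day 9 than at day 3, against 43.6% of all tested, and 11 lower (1.89%). Against MEF, 227 were higher at day 9 (29.8%) and 81 lower (11.0%). The filter shapes that background, since 13.7% of the tested domains, and 12 of the 500, passed it only with the day 9 libraries. With no filter, over all 21562 domains, 290 of the 500 were higher than at day 3 against 25.3%, and 10 lower (1.09%). Against MEF the same fit gave 207 higher (18%) and 76 lower (6.49%). With no filter the median difference of the 500 was 11.6 points from day 3 and 7.02 points from MEF, and that of all domains 7.53 and 0. Over the 14100 that passed the filter it was 19.5 and 2.38, against 11.7 and 7.16 in the members among them, so the order of the medians from day 3 turned with the filter. With batch as a term, over the domains that passed, the median difference from MEF was 2.27 points for the members and −6.61 for all. That fit gave 170 higher and 122 lower for day 9 against MEF, so that 58.2% of calls were higher in place of 73.7%. Over all 14100 domains tested it gave 3246 higher and 2901 lower. Without day 9 replicate 2 the share higher than day 3 was 42.8% in place of 64.6%, and the share lower 1.0% in place of 2.2%; without replicate 1 the shares lower were 0.4% than day 3 and 10.6%, in place of 16.2%, than MEF. Coverage is bounded, and many domains are at 0 in several libraries, so limma's p-values are approximate. Counted by stages whose libraries did not overlap, 287 of the 500 were lower at day 3 than in MEF (background 32.3%) and 89 higher (5.07%). From day 3 to day 6, 202 were lower (13.1%) and 6 higher (0.775%), and from day 6 to day 9, 486 were higher (52.9%) and 0 lower (0.00928%). Day 9 stood above MEF in 314 (29.5%) and below it in 134 (16.2%), and above day 3 in 390 (42.5%) and below it in 25 (2.12%). In all these pairs but day 6 to day 9 the share of the 500 was above the background in both directions. Background domains were much smaller, and 30.5% of all domains were uncovered in every library before ESC. These counts were not made for the next 500 by size, and the day 6 lists were the shortest.

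The stage mean coverage of the 11 domains at pluripotency factors had a median of 1.81% in MEF, 2.41% at day 3, 0.43% at day 6 and 11.6% at day 9. Esrrb, Prdm14 and Zfp42 passed the filter only with the day 9 libraries, so the counts of the 11 are given from the fit with no filter, while SEs and adjusted p-values of single domains are from the filtered fit throughout. With no filter day 9 was above day 3 in 10 of 11 and below it in 1, Tbx3, by limma with adjusted p under 0.05, and against MEF the counts were also 10 and 1 (median difference 8.02 points from day 3, against 11.6 over the 500). In the fit with no filter 58.0% of the 500 were higher than at day 3 and 41.4% higher than in MEF, and of all domains 25.3% and 18%.

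Esrrb, an orphan nuclear receptor of the network, was at 0 in all 8 libraries of MEF, day 3 and day 6. It reached 3.21% and 4.08% at day 9, against 95.7% and 93.6% in ESC. Zfp42 was likewise at 0 until day 6 and at 4.76% and 7.24% at day 9. Prdm14, a zinc finger regulator of ESC, had 0 in 7 of 8 earlier libraries, 0.52% in 1 of day 6, and 7.26% and 7.51% at day 9. Sox2, an HMG factor, had 1.94% and 1.69% in MEF, 0 in all 6 libraries of days 3 and 6, and 4.00% and 3.84% at day 9. These 4 and Tbx3 were the members of the list with under 8% covered at day 9.

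Tbx3 alone of the pluripotency domains was lower at day 9 than in MEF and at day 3, although it too rose from day 6. It had 7.56% and 7.70% in MEF, 4.40%, 4.06% and 4.00% at day 3, 0 in the 3 libraries of day 6, and 1.32% and 1.94% at day 9. It fell by 6.00 points from MEF to day 9 (SE 0.53, limma adjusted p = 6.5e-05).

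Pou5f1, which encodes Oct4, had 7.48% and 7.68% in MEF, 2.87% to 5.56% at day 3, 0, 0 and 1.28% at day 6, and 17.3% and 13.8% at day 9. Nanog had 14.8% and 11.9% in MEF, 9.64% to 15.0% at day 3, 7.72% to 9.77% at day 6, and 20.6% and 20.0% at day 9. Its day 9 libraries stood above all earlier ones, by a difference of 6.97 points from MEF (SE 1.92, limma adjusted p = 0.0223). Tfcp2l1 had at most 3.72% before day 9, and 20.3% and 19.3% then. Klf5 and Klf2, zinc finger relatives of KLF4, reached 11.6% in both day 9 libraries and 22.2% and 22.0%.

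Mycn, a Myc family factor, had the highest coverage of the list at day 9. It had 0 and 0 in MEF, 0 to 5.32% at day 3, 9.47% and 10.7% in the DG-3458 libraries of day 6 and 36.9% in the EA-3702 library, and 65.3% and 62.6% at day 9 (64.0 points above MEF, SE 8.42, limma adjusted p = 0.000611).

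Of the 5 domains at signalling genes, 3 were higher at day 9 than in MEF and 2 lower, against 45.4% and 16.2% of the 500 and 29.8% and 11.0% of all domains tested. Fgf4, a growth factor made by ESC, had 0 in both MEF libraries, 17.9% to 21.6% at day 3, 10.8% to 17.9% at day 6, and 35.2% and 32.4% at day 9. Etv5, an ETS factor downstream of FGF signalling, had 17.1% and 19.7% in MEF and 69.2% and 68.5% at day 9. Socs3 and Smad7, inhibitors of the LIF and the TGF-beta pathways, were the 2 that fell. Socs3 had 60.4% and 60.3% in MEF, 14.6% to 25.5% at day 6, and 42.6% and 44.3% at day 9. Smad7 had 43.2% and 44.4% in MEF, and 14.6% and 20.0% at day 9 (fell by 26.5 points, SE 2.42, limma adjusted p = 7.88e-05).

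All 6 domains at chromatin genes were higher at day 9 than at day 3, and 5 higher than in MEF, all but Trim28, against 64.6% and 45.4% of the 500 and 43.6% and 29.8% of all domains tested. Phc1, a Polycomb subunit, had 11.6% and 12.4% in MEF, 18.3% to 26.7% at day 3, 17.8% to 33.1% at day 6, and 69.7% and 68.4% at day 9. Tet1 and Tet2, which oxidise methylated cytosine, had 21.3% and 19.9%, and 35.9% and 32.3%, at day 9, and at most 5.53% and 20.8% before. Of the 4 housekeeping genes, 3 were higher at day 9 than at day 3 (2 with no filter, which lost Hsp90ab1), while against MEF 2 were higher and Hsp90ab1, a chaperone, was lower (29.6% and 28.4% in MEF, 13.1% and 15.5% at day 9). Fn1, fibronectin, differed from day 3 but not past the threshold from MEF (4.38 points, limma adjusted p = 0.408), with 30.0% and 28.6% in MEF and 34.1% and 33.2% at day 9.

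**Figure D3:**
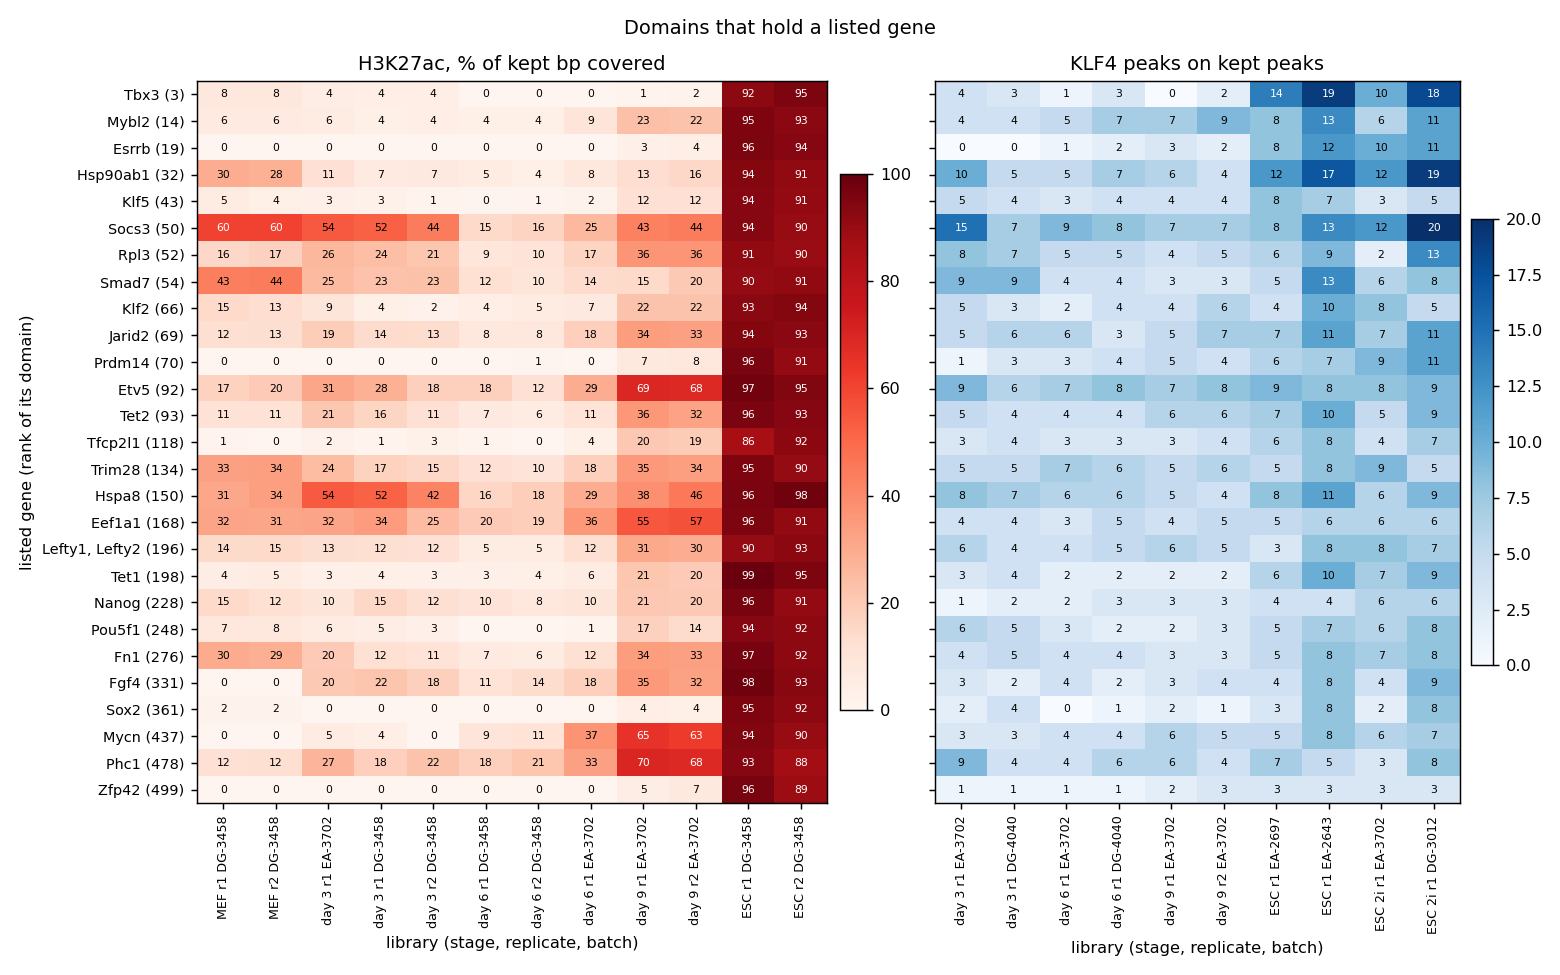
The 27 of the 500 domains that hold a listed gene, by rank, with H3K27ac coverage in percent of kept base pairs (left, red) and number of KLF4 peaks (right, blue) in each library. Esrrb, Zfp42, Prdm14 and Sox2 stay pale until ESC, while Mycn, Etv5 and Phc1 are above 60% at day 9.

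The largest fibroblast domains, built by the same rule from the 2 MEF lists, overlapped 70 of the 500 ESC domains, 14%, and 72 of the 500 MEF domains, 14.4%. Tns3, Cd9, Lmna and Myh9 were among the 70. Those 70 were covered to 50.4% ± 0.14 in MEF (SD, n = 2), 31.4% ± 4.02 at day 3 (n = 3), 14.7% ± 5.72 at day 6 (n = 3) and 39.2% ± 0.88 at day 9 (n = 2). The other 430 had 18.4% ± 0.06, 15.1% ± 2.61, 9.08% ± 3.59 and 28.1% ± 0.34. MEF values here follow from the MEF lists that chose the 70, and no test was made.

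KLF4 was found on nearly all of the 500. At least 1 KLF4 peak lay on a kept peak in 93.4% and 91.0% of them at day 3, 92.4% and 94.2% at day 6, 94.2% and 94.8% at day 9, 98.0% and 99.6% in ESC, and 99.6% and 99.8% in 2i. The other domains, with fewer kept base pairs each, had 31.3% to 50.5%. The share of domains bound differed by stage (F = 18.8, exact permutation test over 10 libraries, p = 0.0138, adjusted p = 0.0255), with no slope over days 3 to 9 past the threshold (0.38 points per day, exact permutation p = 0.133, and 0.21 without the DG-4040 library of day 3). Without either 2i library F was 12.3 and 11.99. The call by stage was lost in 4 of 8 other settings. These were a q-value limit of 0.01 (F = 2.48, exact permutation, adjusted p = 0.156), joining at 5 kb (adjusted p = 0.0727), an overlap of 50% (adjusted p = 0.0722) and labels permuted within batches.

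Of the KLF4 peaks of a library, 6.37% and 5.82% lay on the 500 at day 3, 8.0% and 7.24% at day 6, 7.38% and 7.08% at day 9, 11.5% and 10.4% in ESC, and 10.8% and 10.9% in 2i. All 4 ESC and 2i libraries stood above all 6 libraries of days 3 to 9. The share differed by stage (F = 42.8, exact permutation p = 0.00847, adjusted p = 0.0183), and F was 73.6 without the EA-2643 library of ESC. The slope of the share over days 3 to 9 was 0.19 points per day (exact permutation p = 0.178), and 0.10 without the DG-4040 library of day 3. With labels permuted within batches neither KLF4 difference between stages passed (adjusted p = 0.0619 for the share and 0.135 for domains bound). The 2 serum ESC libraries are alone in their batches, so stage and batch cannot be told apart there. The EA-3702 libraries alone had 6.37% (day 3), 8.0% (day 6), 7.38% and 7.08% (day 9) and 10.8% (2i).

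Per kept base pair, the quantity by which the 500 were ranked, they held fewer KLF4 peaks than the other domains in all 10 libraries. This density is therefore given as a description, with no p. The density was 1.22 to 1.56 peaks per 10 kb at days 3 to 9, 1.73 and 2.55 in ESC and 1.87 and 2.59 in 2i, against 1.83 to 2.55, 2.21 and 3.43, and 2.52 and 3.16. The log2 ratio averaged −0.56, and −0.32 where an overlap of 50% of the shorter interval was required. Kept peaks of the 500 were wider, with a median of 1032 bp against 789 bp. Against the next 500 by size the log2 ratio was −0.23 to −0.29 at days 3 to 9, −0.14 and −0.15 in ESC, and −0.07 and −0.08 in 2i (mean −0.20).

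A domain gained KLF4 between 2 stages when every library of the later stage had more peaks on it than every library of the earlier one. From day 3 to ESC 220 of the 500 gained, against 10.6% of all domains and 170 of the next 500 by size, and 15 lost (3.01%). From day 9 to ESC 271 gained (11.6%) and 4 lost (3.7%). From day 3 to day 9 there were 79 gains (5.69%) and 91 losses (5.58%), and from ESC to 2i 48 gains (3.62%) and 41 losses (4.7%). The next 500 by size had 194 gains and 19 losses from day 9 to ESC, 83 and 83 from day 3 to day 9, and 32 and 53 from ESC to 2i. With 2 libraries a stage the counts of the 500 moved when 1 library was left out. The shares of all domains, which may move as well, were not computed with 1 library left out. Gains were 78.2% in place of 44.0% from day 3 to ESC, and 85.4% in place of 54.2% from day 9, without the EA-2697 library of ESC. Losses from day 3 to ESC, 3.0%, were 14.6% without the EA-2643 library of ESC and 8.6% without the DG-4040 library of day 3. Losses from day 9 to ESC, 0.8%, were 16% without the EA-2643 library, 1.6% without the EA-2697 library, and 3.2% and 2.2% without each day 9 library. Between day 3 and day 9 gains were 32.6% without the EA-3702 library of day 3, and losses 43.2% without the DG-4040 library. From ESC to 2i gains were 43.6% without the EA-2643 library and 41.6% without the EA-3702 library of 2i, and losses 35.2% and 30.6% without the other library of each stage.

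Of the 11 pluripotency domains 8 gained KLF4 from day 3 to ESC and none lost, against gains in 44.0% of the 500 and 10.6% of all domains. Tbx3 had 4 and 3 peaks at day 3, 1 and 3 at day 6, 0 and 2 at day 9, 14 and 19 in ESC, and 10 and 18 in 2i. Esrrb had none in both day 3 libraries, 1 and 2 at day 6, 3 and 2 at day 9, 8 and 12 in ESC, and 10 and 11 in 2i. Both had fewer peaks in each library of days 3 to 9 than in any ESC or 2i library. Nanog had 1 and 2 at day 3, 2 and 3 at day 6, 3 and 3 at day 9, 4 and 4 in ESC, and 6 and 6 in 2i. Pou5f1 had 6 and 5 at day 3, 2 or 3 in each library of days 6 and 9, and 5 and 7 in ESC, so that its stages overlap. The largest KLF4 gains after Tbx3 included Epop with Mllt6 (rank 38; 6 and 8 peaks at day 3, 16 and 19 in ESC) and Epha2 (59; 8 and 5 at day 3, 15 and 17 in ESC).

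KLF4 sites of serum ESC, 16508 merged peaks found in both libraries, lay on the 500 in 2075 cases, on other domains in 9932 and outside domains in the rest. Of those on the 500, 58.3% and 48.7% had a KLF4 peak at day 3, 55.9% and 57.1% at day 6, 58.5% and 59.95% at day 9, and 72.5% and 78.9% in 2i. Of those on other domains, 66.5% and 55.6%, 65.8% and 61.9%, 64.2% and 67.1%, and 72.1% and 74.3% did. Sites outside domains had lower shares than those on the 500 in each of these libraries, 39.3% to 52.5% at days 3 to 9 and 53.0% and 53.1% in 2i. At days 3 to 9 the 500 were lower than other domains in 6 of 6 libraries, by 7.12 points on average (exact sign-flip p = 0.0312, the smallest 6 libraries can give, adjusted p = 0.05 over 16 tests, not below the threshold), and by 13.3 points with equal numbers of top peaks. In 2i both libraries were on the other side, +0.36 and +4.64 points. The bound share of sites on the 500 had no slope over days 3 to 9 past the threshold (0.96 points per day, exact permutation p = 0.156, adjusted p = 0.207 over 16 tests). This slope ran from 0.26 to 1.64 when 1 library was left out.

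**Figure D4:**
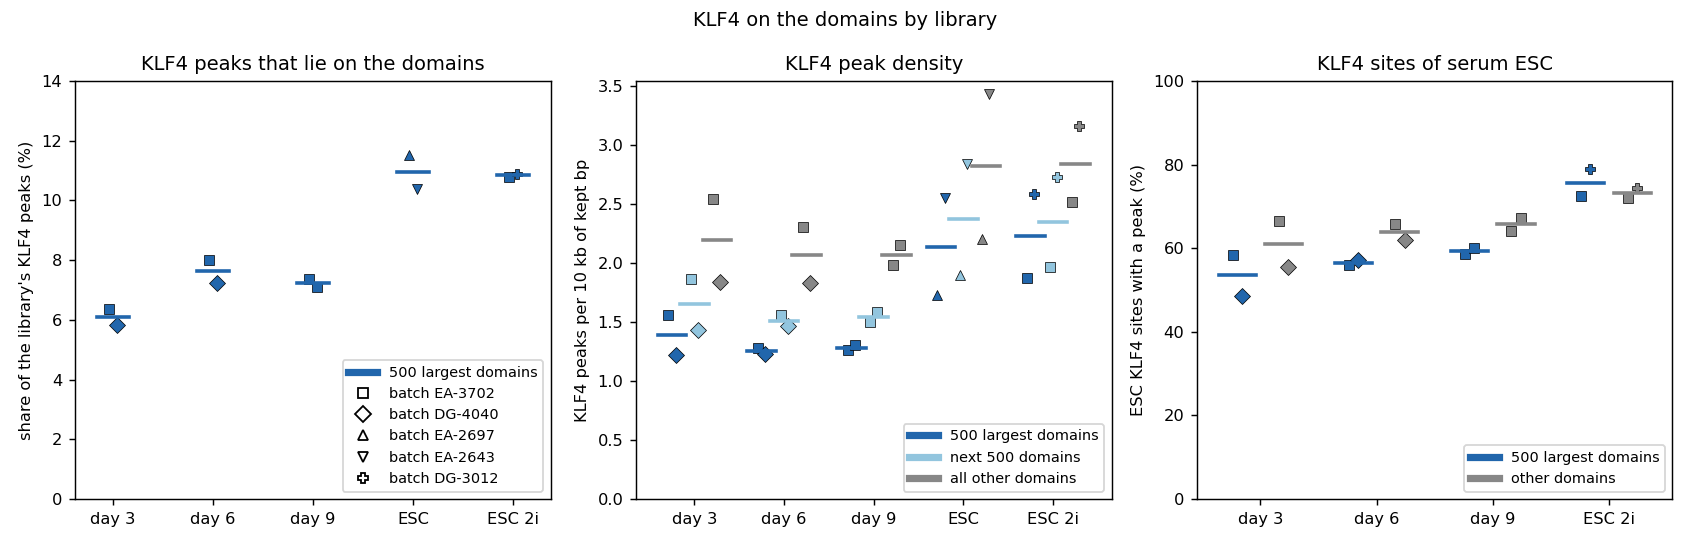
KLF4 by library, 1 point per library with its batch as the symbol and stage means as bars. Left, the share of a library's KLF4 peaks on the 500 domains (5.82% to 8.0% at days 3 to 9, 10.4% to 11.5% in ESC and 2i); middle, peaks per 10 kb of kept base pairs, lower on the 500 than on both comparison sets in every library; right, the percentage of serum ESC KLF4 sites with a peak, lower on the 500 at days 3 to 9 and higher in 2i.

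Kept peaks of the 500 that carried KLF4 in both day 3 libraries (1251) were set against those with KLF4 in neither (5288), leaving out 806 with KLF4 in 1. Bound peaks were covered by H3K27ac to 35.7% and 35.9% in MEF, 29.1% to 38.2% at day 3, 15.0% to 29.2% at day 6, and 51.1% and 51.6% at day 9. Unbound peaks had 12.9% and 12.9%, 4.15% to 6.91%, 1.35% to 3.29%, and 12.4% and 12.95%. The difference averaged 26.0 points and was positive in 10 of 10 libraries (exact sign-flip p = 0.00195, adjusted p = 0.00508), MEF included, in which the cassette was not induced. It did not change over days 3 to 9 past the threshold (slope 1.45 points per day, exact permutation p = 0.329), and without either day 9 library the slope was 0.58 and 0.59. Bound peaks were wider, with a median of 2781 bp against 826 bp, and 46.0% lay near gene ends against 19.5%. Away from gene ends, with 675 bound and 4256 unbound peaks, the difference was 21.4 points, positive in 10 of 10.

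KLF4 at day 3 and in ESC together divided the kept peaks away from gene ends further. With KLF4 in both libraries of both stages (483 peaks), coverage was 24.8% ± 0.08 in MEF (SD, n = 2), 27.2% ± 3.98 at day 3 (n = 3), 14.1% ± 7.63 at day 6 (n = 3) and 45.0% ± 0.51 at day 9 (n = 2). With KLF4 in neither day 3 library but both ESC libraries (374 peaks), it was 9.34% ± 0.05, 3.14% ± 0.68, 1.20% ± 0.86 and 13.9% ± 0.54. With KLF4 at day 3 and not in ESC (95 peaks), it was 31.1% ± 0.05, 45.1% ± 7.56, 16.6% ± 9.70 and 53.5% ± 1.44. With KLF4 at neither (3485 peaks), it was 11.5% ± 0.19, 5.25% ± 1.46, 1.20% ± 0.85 and 9.01% ± 0.19. In ESC, where coverage belongs to the choice of domains, peaks bound in ESC but not at day 3 had 95.4% ± 0.82 and those bound at neither 84.3% ± 2.65. No test was made between these sets.

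**Figure D5:**
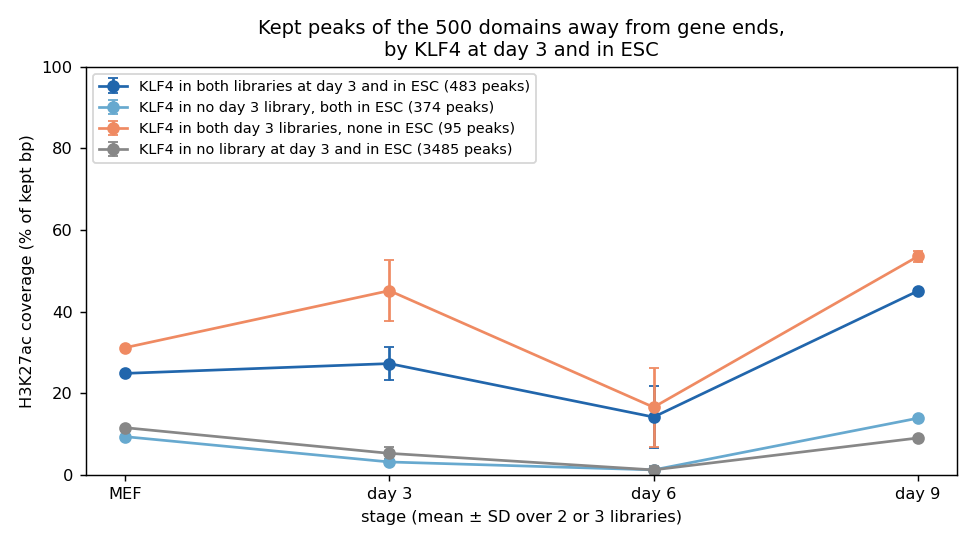
H3K27ac coverage in percent of kept base pairs, mean ± SD over the 2 or 3 libraries of a stage, for kept peaks of the 500 domains away from gene ends, split by KLF4 at day 3 and in ESC. The 2 sets with KLF4 at day 3 reach 45.0% and 53.5% at day 9, and the 2 sets without it 13.9% and 9.01%.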

How the data were processed

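ChIP-seq of H3K27ac (12 libraries) and KLF4 (10) had been made with formaldehyde crosslinking, sonication and single-end reads, per the labels' protocols. The 13 input libraries were not analysed here. The submitters' processing notes name cutadapt 1.8.1, Bowtie2 2.2.5, deepTools 2.3.6, MACS2 2.1.1 and mm10, with no role or setting.

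The authors deposited 1 peak list per library, in which each peak has a score, its fold over background as a ratio, and 2 columns with −log10 of the p-value and the q-value. These are the authors' values and served only to rank or filter peaks within a list. No read counts are given, so depth is unknown and a region without a peak is not one without signal; precision comes from the spread between libraries alone. Replicate lists shared at most 15 identical intervals.

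Kept base pairs, domains and coverage were computed as the report defines them, with overlaps of at least 1 bp. Exact permutation tests on 1 value per library were two-sided, with Benjamini-Hochberg adjustment over 13 tests and over 16 with 3 added after the data were seen; the threshold was 0.05. The planned tests of KLF4 density and of coverage against other domains count among the 13, but their p-values are not given, since both divide by the ranked kept base pairs. Percent covered per domain was fitted with limma 3.58.1 (R 4.3.3, eBayes with trend) and adjusted over all domains tested. Coverage was also simulated for day 9 minus day 3 over 14100 domains, with the same normal noise in every domain and 100 planted differences of each size. Differences of 30 points were recovered in 100% and of 10 points in 6%. In the real fit the spread differed between domains (SE 0.44 points at Esrrb, 7.69 at Mycn), so these shares are not its power. Gene positions came from a table of GRCm38.p6, the assembly behind mm10, without strand. Domains were named by these rules: the 10 largest, those at listed genes, the 3 largest of each timing class, and the 5 with most KLF4 peaks in ESC or most gain; 1 of these domains is not reported here. The domains, lists and tests were chosen with earlier results of these data known. Alternatives were stricter or equal peak sets, other numbers of domains, 5 kb joining, batch and replicate blocks and leaving out each library. Replicate numbers did not pair the libraries.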

Additional observations from a re-analysis of the deposited data

Results flagged for a closer look

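Away from gene ends the difference in H3K27ac coverage between the 500 domains and the others had opposite signs at different stages. It averaged 1.63 points in MEF and 1.09 at day 3, with every library positive, and −0.37 at day 6 and −2.35 at day 9, with every library negative. The difference between stages as such was tested only as a slope over days 3 to 9 (−0.57 points per day, exact permutation p = 0.00179). The split was added after the data were seen, and its p is not adjusted as a further added test.

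Over all kept peaks the same difference moved by −0.70 points per day from day 3 to day 9. The exact permutation test of that change gave an adjusted p of 0.0464 over the 13 planned tests, below the threshold. Over all 16 tests it was 0.05, not below it. The call was lost in 8 of 11 other settings and in 6 of 10 fits without 1 library. Mean coverage rose in both sets, from 17.7% at day 3 to 29.9% at day 9 in the largest domains and from 24.3% to 41.0% in the others. A gap in points widens with coverage where the ratio stays the same, and a change in the ratio was not tested.

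KLF4 sites of serum ESC were bound less often on the 500 than on other domains at day 3 (mean −7.52 points), day 6 (−7.39) and day 9 (−6.45) in every library, and more often in 2i (mean 2.5) in both. The difference between 2i and the other stages was not tested.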

How the results depend on the processing

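Of 305 alternative values of the 16 exact tests, 276 kept direction and side of the threshold. Where not stated otherwise the cause of a change was not tested. The change per day in coverage of the 500 minus other domains was lost with the top 50% of peaks (−0.71), equal numbers of peaks (−1.0), a q-value limit (−0.75), 1000 domains (−0.58), 5 kb joining (−0.73), near gene ends (−0.81) and against the next 500 domains (−0.47). The difference itself reversed away from gene ends (0.073). KLF4-bound domains by stage lost the call with a q-value limit (F = 2.48), 5 kb joining (F = 11.0), an overlap of 50% (F = 17.8) and labels permuted within batches (F = 18.8), the last also for the KLF4 share (F = 42.8). With 250 domains the slope of bound domains (0.37) and the site difference (−7.87) passed, as did the slope of bound ESC sites (1.69) with equal numbers of peaks.

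Replicate numbers did not pair the libraries (correlation of replicate differences between stages −0.00457 to 0.0293). With the replicate block, batch DG-3458 alone, no test passed: coverage by stage had F = 107, its slope −2.85, the share F = 208, the difference from other domains −7.03 and its slope −0.10, and bound minus unbound peaks 20.98 with a slope of −3.90. The smallest p there is 0.167 for stages and 0.5 for slopes. With the block in limma, the median difference of day 9 from MEF was 1.88 points for the members and −7.06 for all domains that passed the filter. In that fit 29.0% of the 500 were higher than MEF and 3.8% lower than day 3, against 2677 and 276 of all 14100 domains tested. With batch as a term 24.4% were lower than MEF and 4.8% lower than day 3, against 2901 and 393 of all 14100 domains tested. With the top 50% of peaks 3.4% were lower than day 3, against 169 of 10742. With equal numbers 8.6% were lower than MEF, against 292 of 7517.

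At limits of 75% and 5%, 66.0% of the 500 were partial throughout, 2.4% empty throughout, 5.4% empty until day 6, 0.8% filled at day 9 and not in MEF, 0.4% filled at both ends and 1.6% in MEF and not at day 9. With equal numbers of peaks 14.8% were empty throughout and 11.0% empty at day 6 but not at day 9 nor at both earlier stages, and with 250 domains 2.4% were filled at both ends. With equal numbers KLF4 losses were 15.6% (ESC to 2i), 1.8% (day 3 to ESC), 8.4% (day 3 to day 9) and 4.0% (day 9 to ESC), and gains from day 3 to day 9 were 24.6%. These values were computed for the largest domains alone, so the shares of all domains under the same settings are not known.

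Leaving out 1 library at a time moved the change per day in the 500 minus other domains between −0.88 and −0.57; the call was lost at −0.69 and −0.68 without either DG-3458 library of day 3, −0.72 and −0.70 without replicate 1 of day 6 in DG-3458 or EA-3702, and −0.61 and −0.57 without either library of day 9. Percent of the 500 called by limma ran from 42.8% to 71.2% (higher than day 3), 0.4% to 2.8% (lower than day 3) and 10.6% to 17.8% (lower than MEF). The class empty at day 6 but not at day 9 nor at both earlier stages ran from 19.2% to 40.2%, and the class partial throughout from 16.4% to 35.2%. KLF4 gains ran from 43.4% to 78.2% (day 3 to ESC), 53.0% to 85.4% (day 9 to ESC), 15.2% to 32.6% (day 3 to day 9) and 7.6% to 43.6% (ESC to 2i). Losses ran from 2.8% to 14.6%, 0.6% to 16%, 18.2% to 43.2% and 7.2% to 35.2% for the same pairs, with 41.6% gains without the EA-3702 library and 30.6% losses without the DG-3012 library of 2i, and losses from day 9 to ESC of 3.2% and 2.2% without either day 9 library. For these classes, gains and losses the shares of all domains were not computed with a library left out. Peak lists carry no depth, so a weak mark and an absent one cannot be told apart.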
